A study of Mus musculus with 6 samples.

Results

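Sp7, Dlx3, Dlx5, Msx1, Msx2, Twist1, Runx1, Runx3 and Atf4 are transcription factors with described roles in the osteoblast lineage, and their transcripts were compared between healing bone of Cyp24a1-null and heterozygous mice. The 9 genes were taken through every probe set whose only gene symbol in the platform annotation was one of them, which gave 20 of the 45037 probe sets tested and 9 of 18193 genes. Runx1 had 6 probe sets, Atf4 had 3, Dlx3, Msx1, Msx2 and Runx3 had 2 each, and Sp7, Dlx5 and Twist1 had 1 each.

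The series holds 3 arrays of Cyp24a1 (-/-) callus and 3 arrays of Cyp24a1 (+/-) callus, the heterozygous mice being littermates of the null mice. All mice were 12 weeks old, on a C57BL6J x 129SV mixed background, and had the same operation, a cut through the tibia held by a rod inside the bone, so no array comes from unbroken bone or from wild-type mice. The callus, the repair tissue that bridges the break, was taken at day 14, and its total RNA was hybridised to Affymetrix Mouse 430_2 arrays. The heterozygous controls keep 1 working copy of Cyp24a1, the enzyme that inactivates the vitamin D hormone. Whether every array stands for its own mouse is not stated in the labels. The p-values here therefore cover only the variation among these samples, which may in part be technical.

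Osteoblasts form from mesenchymal cells through a series of transcription factors. Sp7 (osterix), a zinc finger protein, is required for osteoblasts to form, and the homeodomain proteins of the Dlx and Msx families act on early and matrix genes of the lineage. Twist1, a basic helix-loop-helix protein that binds E-boxes, holds osteoblast differentiation back. Runx1 and Runx3 share with the master osteoblast factor Runx2 a DNA-binding runt domain and the partner Cbfb, and are best known from blood and T cells, while Atf4 controls amino acid supply and is needed for the high protein output of mature osteoblasts.

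The promoter windows of the Runx genes are shown because Runx1 had the widest differences among the 9 genes. Another reason is that each of the 2 genes is transcribed from a distal and a proximal start, to which the probe sets were not assigned. The windows are the 250 bases before the annotated start, read from RefSeq on GRCm38.p6 along the coding strand. Letters in capitals are E-boxes (CANNTG) in Runx1 and the Runx motif (TGTGGT, here as its other strand ACCACA) in Runx3.
Runx1 distal promoter, chr16:92826075-92826324, minus strand: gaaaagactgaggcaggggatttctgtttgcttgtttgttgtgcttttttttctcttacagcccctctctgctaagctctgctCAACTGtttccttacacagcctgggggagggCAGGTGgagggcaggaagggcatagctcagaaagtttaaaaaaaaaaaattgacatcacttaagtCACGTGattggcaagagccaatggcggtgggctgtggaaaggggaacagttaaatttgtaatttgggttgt
Runx1 proximal promoter, chr16:92697330-92697579, minus strand: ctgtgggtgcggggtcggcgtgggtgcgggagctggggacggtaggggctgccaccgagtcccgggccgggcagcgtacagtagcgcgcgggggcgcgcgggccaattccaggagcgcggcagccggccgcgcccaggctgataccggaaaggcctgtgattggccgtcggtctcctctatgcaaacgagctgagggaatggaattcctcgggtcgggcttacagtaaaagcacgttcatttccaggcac
Runx3 distal promoter, chr4:135120395-135120644, plus strand: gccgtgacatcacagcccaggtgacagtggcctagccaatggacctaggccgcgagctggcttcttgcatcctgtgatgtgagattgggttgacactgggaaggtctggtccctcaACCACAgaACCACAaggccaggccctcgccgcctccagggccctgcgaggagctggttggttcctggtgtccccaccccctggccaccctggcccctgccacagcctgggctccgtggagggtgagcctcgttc

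The distal Runx1 window held 3 E-boxes and no TGTGGT on either strand, and the proximal Runx1 window held neither. An E-box has the same form on both strands, and at least 1 stood in 66.22% of 32851 promoter windows of this length. The Runx motif was searched on both strands and stood in 14.05% of the windows, with 2 matches in the distal window of Runx3. The 2 Runx1 windows also differed in base composition, at 45.6% G and C in the distal and 67.6% in the proximal one. RefSeq windows were matched by symbol for 6 of the 9 genes, and those of Sp7, Dlx3 and Dlx5 are not shown. Among the other windows, GGGCGG, the core of the sites that Sp proteins bind, stood 3 times in the proximal Runx3 window and in 32.74% of all windows. None of the 8 windows held TAATTG, a homeodomain motif found in 7.17% of all windows, or AGGTCA, the half-site of nuclear receptors such as the vitamin D receptor, found in 14.02%. These matches describe the letters of the windows only.

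Median log2 levels were 4.55 to 4.59 over the 6 arrays. The callus carried the transcripts of bone matrix, with Col1a1 at 13.57 to 14.28 over the 6 arrays, and of skeletal muscle, with Acta1 at 14.40 to 14.49. Marrow RNA was uneven within both groups: the mean of 32 neutrophil and erythroid genes, each centred on its own mean, was -2.53, 1.62 and 0.94 on the null arrays and 1.32, 1.31 and -2.66 on the heterozygous arrays. Null replicate 1 and heterozygous replicate 3 therefore held little marrow signal, and values without both are given for the genes whose main probe set they move by over 1.5 times. Sex-linked transcripts on arrays that lack them read 2.34 to 3.52 (5 probe sets, chosen after their values were seen), taken below as the background guide. Xist was present on null replicate 1 and heterozygous replicate 1 and the Y-linked Eif2s3y and Uty on the other 4 arrays, so each genotype had 1 female and 2 male arrays by these transcripts, and sex did not enter the fit.

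None of the 20 probe sets passed limma's test (adjusted p = 0.999 for all 20), nor did any of the 45037 (0% called). At an unadjusted p under 0.05, 2 of the 20 passed, against 3.69% of all probe sets (1660), and both were Runx1 probe sets lower in null callus, a direction in which 2.06% of all probe sets passed. The groups did not overlap for 5 of the 20, 4 of them lower and 1 higher in null callus, against 8.95% of all probe sets in either direction. In the mean, 7 of the 20 probe sets were higher and 13 lower in null callus, with a median difference of -0.11 log2 units, beside -0.0081 over all probe sets. All 6 Runx1 probe sets were lower, and the other 14 divided into 7 higher and 7 lower. All differences below are null minus heterozygous on the log2 scale, and an interval is the fit's 95% interval of the difference.

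**Figure D1:**
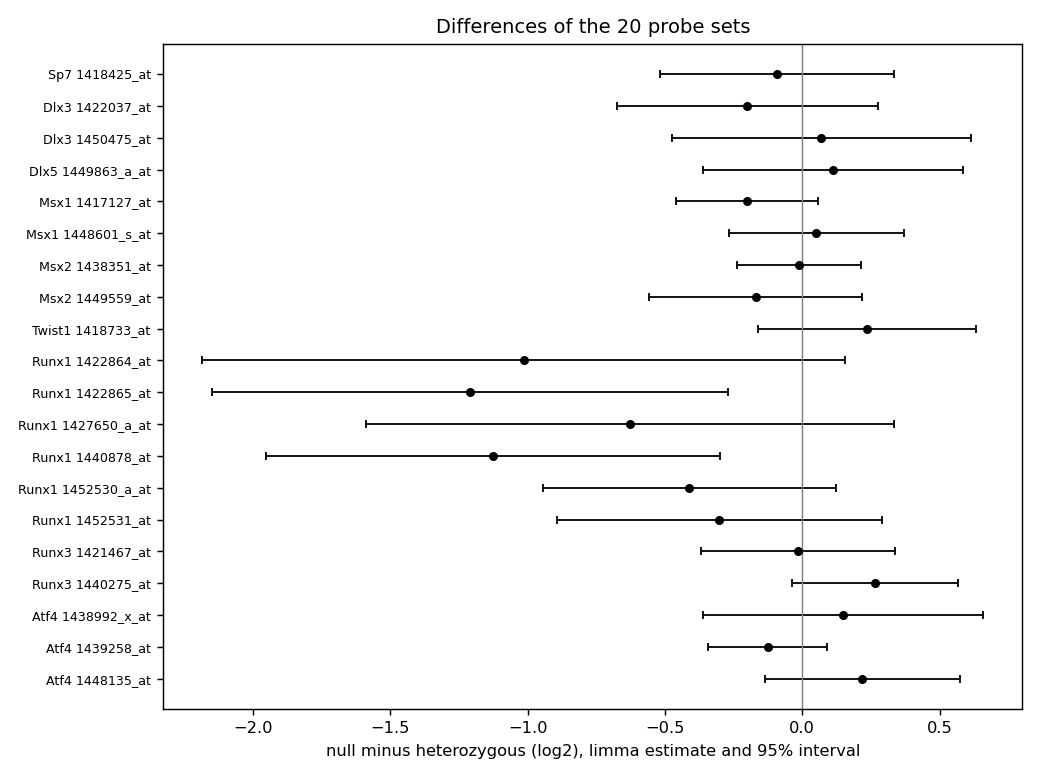
Null minus heterozygous difference of each of the 20 probe sets, in log2 units on the horizontal axis, with the limma estimate (point) and its 95% interval (bar). The 6 Runx1 estimates lie between -1.21 and -0.30, and the other 14 between -0.20 and 0.26.

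Sp7, the zinc finger factor without which osteoblasts do not form, was measured by 1418425_at. It read 5.90, 6.25 and 6.21 on the null arrays and 6.16, 5.96 and 6.51 on the heterozygous arrays. The lowest value was in null callus and the highest in heterozygous callus, and the groups overlapped. The difference was -0.09 (SE 0.18, interval -0.52 to 0.34), with an exact permutation p of 0.7. In bulk tissue, fewer cells of a type and less RNA per cell cannot be told apart, here and for every gene below. Leaving out null replicate 1 turned the sign of the Sp7 difference (0.02), as did leaving out heterozygous replicate 3 (0.06) or both arrays (0.17).

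The osteoblast-like marker genes moved beside Sp7 as follows: 3 of 12 measured were higher in null callus, with a median difference of -0.33, and their mean level ran from 8.66 to 8.96 on the null arrays and from 8.94 to 9.16 on the heterozygous arrays. No marker of that list lay within the background guide on all arrays. The 3 higher genes were also its most abundant, Col1a1 at 0.03 (SE 0.21), Col1a2 at 0.07 (SE 0.17) and Sparc at 0.16 (SE 0.21), with intervals that held 0. Of the 9 lower genes 3 had an unadjusted p under 0.05, against 4.49% of all genes in either direction. They were Ibsp at -0.56 (SE 0.16), Alpl at -0.32 (SE 0.10) and Kazald1 at -0.36 (SE 0.12). All 12 markers also belong to a wider list of 30 measured osteoblast and osteocyte matrix genes. Of those 30, 16 were higher and 14 lower in null callus, with a median difference of 0.01. The part of osteoblast-like cell number in the Sp7 values was not tested.

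Dlx5, a homeodomain activator expressed early in osteoblasts, was measured by 1449863_a_at. Its levels were 5.04, 5.63 and 5.09 in null callus and 5.23, 4.91 and 5.29 in heterozygous callus. Null replicate 2 stood above all other arrays, and the remaining values of the groups were interleaved. The difference was 0.11 (SE 0.20, interval -0.36 to 0.59), with an exact permutation p of 0.8, and it was -0.08 without null replicate 2, close to 0 without heterozygous replicate 2 (-0.0049), 0.22 without null replicate 1 and 0.29 without both marrow-poor arrays. It was also larger without null replicate 3 (0.20) and without heterozygous replicate 3 (0.19).

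Dlx3, a homeodomain factor of bone, tooth and hair that also acts in epidermis, had 2 probe sets of opposite sign. On 1422037_at the levels were 3.92, 4.64 and 4.29 in null callus and 4.53, 4.59 and 4.32 in heterozygous callus, a difference of -0.20 (SE 0.20). It was -0.02 without null replicate 1, -0.09 without both marrow-poor arrays and -0.38 without null replicate 2. On 1450475_at they were 3.98, 4.37 and 3.63 in null callus and 3.84, 4.23 and 3.70 in heterozygous callus, a difference of 0.07 (SE 0.23). The groups overlapped on both, and the null range was wider than the heterozygous range on each. Keratinocyte markers differed between these arrays: 16 of 18 were higher in null callus, with a median difference of 1.03, and their mean level ran from 5.61 to 6.68 on the null arrays and from 4.31 to 6.23 on the heterozygous arrays, with no marker within the background guide on all arrays. The part of skin RNA in the Dlx3 values was not tested.

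Msx1, a homeodomain repressor of early mesenchyme, also had 2 probe sets of opposite sign. On 1417127_at it read 4.83, 4.91 and 5.03 on the null arrays and 5.04, 5.22 and 5.11 on the heterozygous arrays. Every null value was below every heterozygous value, with 0.0073 between the closest arrays. The difference was -0.20 (SE 0.11, interval -0.46 to 0.06), and the exact permutation p was 0.1, the smallest that 3 against 3 arrays allow. On 1448601_s_at, whose suffix marks probes that can also match other transcripts, the levels were 5.07, 4.68 and 4.88 in null callus and 4.74, 4.80 and 4.94 in heterozygous callus, a difference of 0.05 (SE 0.13) that turned to -0.04 without null replicate 1.

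Msx2, a homeodomain factor of skull and limb bone that acts downstream of bone morphogenetic proteins, was measured near the lower end of the scale. On 1449559_at it read 3.68, 3.96 and 3.67 on the null arrays and 3.81, 4.22 and 3.77 on the heterozygous arrays, all just above the background guide. The second replicate was the highest in each group, and the groups overlapped. The difference was -0.17 (SE 0.16, interval -0.56 to 0.22), with an exact permutation p of 0.5. It was -0.03 without heterozygous replicate 2 and -0.26 without null replicate 2. On 1438351_at all 6 arrays read 2.34 to 2.45, within the background guide, so that no fold is given.

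Twist1, the E-box binding factor that delays osteoblast differentiation, was measured by 1418733_at. Its levels were 5.66, 5.51 and 5.81 in null callus and 5.16, 5.40 and 5.70 in heterozygous callus. The null values lay within 0.30 of each other, and 1 heterozygous array reached into their range. The difference was 0.24 (SE 0.17, interval -0.16 to 0.63), with an exact permutation p of 0.3. It kept its sign in all 15 alternative settings, some of which refit the same values and could not turn it. It was 0.11 without heterozygous replicate 1, 0.38 without heterozygous replicate 3, 0.38 without both marrow-poor arrays and 0.42 with array weights. Twist2, its close relative, read 5.34, 5.30 and 5.60 on the null arrays and 4.91, 5.08 and 5.19 on the heterozygous arrays. All null values of Twist2 lay above all heterozygous values, with a difference of 0.35 (SE 0.13), an unadjusted limma p of 0.0336 and an exact permutation p of 0.1. Markers of mesenchymal progenitor-like cells, which express Twist genes, were higher in null callus for 13 of 13 genes, against 49.7% of all genes. Their median difference was 0.28, and their mean level ran from 8.12 to 8.46 on the null arrays and from 7.83 to 8.29 on the heterozygous arrays. No gene of that list lay within the background guide, and the part of these cells in the Twist values was not tested.

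**Figure D2:**
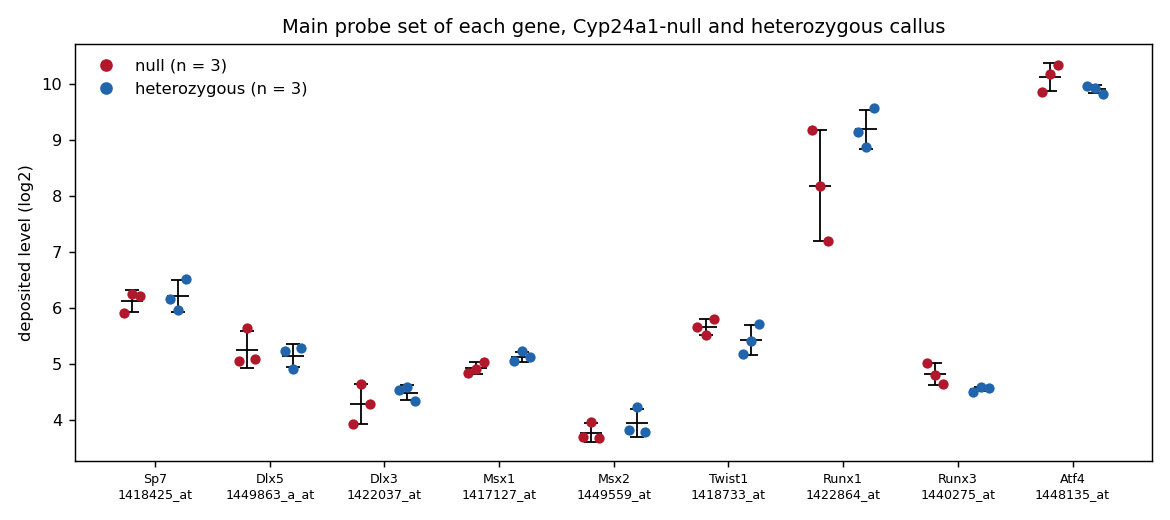
Level of the main probe set of each gene, the one with the highest mean over the 6 arrays, on the log2 scale as deposited, with null arrays left (red points) and heterozygous arrays right (blue points), and bars for the mean and SD of 3 arrays. Runx1 spans 7.19 to 9.58, while the other 8 span 0.39 to 0.73 each, and levels are comparable only within a gene.

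Runx1, the runt-domain factor that is required for blood stem cells and is also expressed in cartilage and muscle, read lower on average in null callus on every one of its 6 probe sets. On 1440878_at the levels were 8.50, 7.69 and 7.05 in null callus and 8.98, 8.87 and 8.77 in heterozygous callus. The heterozygous arrays lay within 0.21 of each other, and all null arrays were below them, with 0.27 between the closest arrays. The lowest null array was 1.72 units under the lowest heterozygous array. The difference was -1.13 (SE 0.34, interval -1.95 to -0.30), or 0.458 times the heterozygous level, with an unadjusted limma p of 0.0152 and an exact permutation p of 0.1. On 1422865_at the levels were 7.57, 7.56 and 6.47 in null callus and 8.67, 7.78 and 8.78 in heterozygous callus. The groups again did not overlap, with 0.21 between the closest arrays. Null replicate 3 was far under the rest and heterozygous replicate 2 close to the other null arrays. The difference was -1.21 (SE 0.39, interval -2.15 to -0.27), or 0.432 times the heterozygous level, with an unadjusted limma p of 0.0191 and an exact permutation p of 0.1.

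The probe set with the highest Runx1 signal, 1422864_at, read 9.19, 8.18 and 7.19 on the null arrays and 9.14, 8.88 and 9.58 on the heterozygous arrays. Null replicate 1 lay among the heterozygous arrays and the other null arrays lay below them. The difference was -1.01 (SE 0.49, interval -2.18 to 0.16), or 0.495 times the heterozygous level, with an unadjusted limma p of 0.0789 and an exact permutation p of 0.3. It was -0.52 without null replicate 3 and -1.51 without null replicate 1, so this size rests on single null arrays. The remaining probe sets gave smaller differences, each with overlap: -0.63 (SE 0.40, unadjusted limma p of 0.165) on 1427650_a_at, -0.41 (SE 0.22, limma p of 0.11) on 1452530_a_at and -0.30 (SE 0.25, limma p of 0.264) on 1452531_at. Without null replicate 3 these became -0.21, -0.24 and -0.13, and the first and the last became -1.05 and -0.53 without null replicate 1. On 1452531_at the difference was -0.14 without heterozygous replicate 3.

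The 2 lowest arrays, though not the order of the others, were shared by the Runx1 probe sets, which measure the same RNA and are not replicates of each other. Null replicate 3 was the lowest array on 6 of 6 and null replicate 2 the second lowest on 6 of 6. The sign was negative for every Runx1 probe set in each of the 15 alternatives in which it was tested. Some of these refit the same values and could not turn it. At an unadjusted p under 0.05 the number of Runx1 probe sets was 6 without null replicate 1, 5 without both marrow-poor arrays and 1 without heterozygous replicate 1, against 2 with all arrays. The number of all 45037 probe sets at that threshold moved the same way, at 2364, 3453 and 1062 in these settings against 1660 with all arrays. 1440878_at stayed under that threshold in all 14 alternatives in which it was tested, and 1422865_at did not without heterozygous replicate 1 or heterozygous replicate 3. The main probe set, 1422864_at, was under it in 4 of 15 alternatives. Of 14 alternatives each, 1452530_a_at was under it in 4, 1427650_a_at in 3 and 1452531_at in 1.

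**Figure D3:**
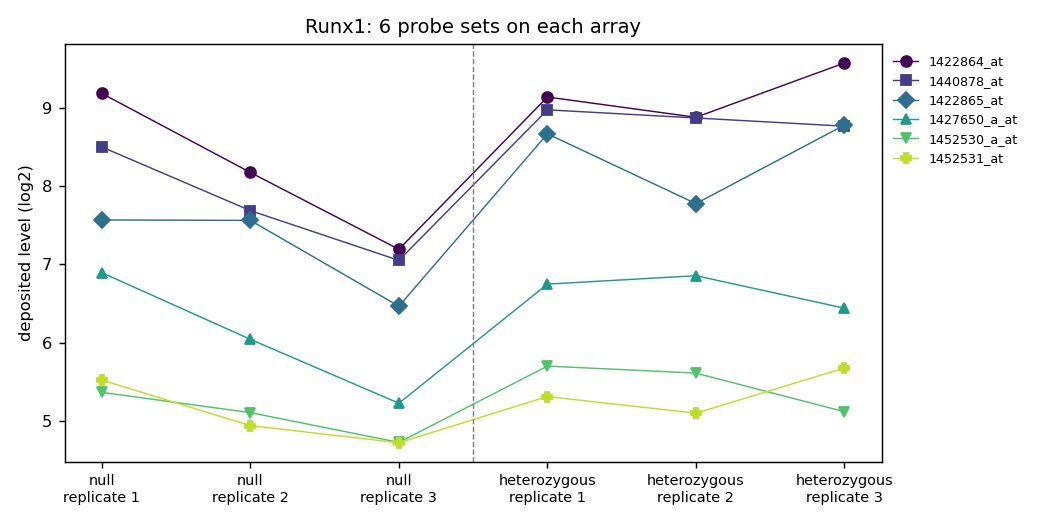
Level of the 6 Runx1 probe sets on the log2 scale as deposited, on the 3 null arrays (left of the dashed line) and the 3 heterozygous arrays (right), with 1 line per probe set. Every line has its lowest point at null replicate 3 and its second lowest at null replicate 2.

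Other cell types on the same arrays were read beside Runx1. On 1422864_at the marrow-poor arrays had the highest value of their group, 9.19 on null replicate 1 and 9.58 on heterozygous replicate 3. Null replicate 1 was the highest null array on all 6 Runx1 probe sets, whereas heterozygous replicate 3 was the highest heterozygous array on 1422864_at, 1422865_at and 1452531_at and the lowest on 1440878_at (8.77), 1427650_a_at (6.44) and 1452530_a_at (5.12). Of the neutrophil and precursor genes, 14 of 17 were higher in null callus with a mean level of 5.79 to 10.28 on the null arrays and 5.25 to 9.92 on the heterozygous arrays, and of the erythroid genes 2 of 15 were, at 4.53 to 8.29 on the null arrays and 4.87 to 8.11 on the heterozygous arrays, with Hba-a1 within the background guide. Without both marrow-poor arrays the difference was -1.33 on 1422864_at, -1.55 on 1440878_at, -1.21 on 1422865_at, -1.17 on 1427650_a_at, -0.74 on 1452530_a_at and -0.37 on 1452531_at. With the marrow score as a covariate the difference on 1422864_at was -1.01. The score was nearly balanced between the groups, so the covariate could hardly move a difference. The part of marrow RNA in the Runx1 values was not tested. Of the skeletal muscle markers 1 of 16 was higher in null callus, with a median difference of -0.07, a mean level of 12.58 to 13.32 on the null arrays and 12.81 to 13.44 on the heterozygous arrays and none within the background guide. Of the chondrocyte-like markers 6 of 21 were higher, with a median difference of -0.20, a mean level of 5.06 to 5.76 on the null arrays and 5.58 to 5.84 on the heterozygous arrays, and with Matn1, Hapln1, Ihh, Mia and Epyc within the background guide. The parts of muscle and cartilage RNA in the Runx1 values were not tested.

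The genes whose pattern over the 6 arrays was nearest to Runx1 were named by the root mean square distance between centred log2 levels, among 11476 genes with a level above the median, whose median distance was 0.82. Runx1 was the only one of the 9 genes with a main probe set that spanned 1 or more log2 units, so the search was made for it alone. The nearest was Chrna1, the alpha subunit of the muscle acetylcholine receptor, at a distance of 0.17. Chrna1 (1418852_at) read 11.50, 10.40 and 9.68 on the null arrays and 11.41, 11.29 and 11.52 on the heterozygous arrays, a difference of -0.88 (SE 0.43) with overlap at null replicate 1. Cdkn1a, the cyclin-dependent kinase inhibitor p21, followed at 0.19, with 11.52, 10.10 and 9.49 on the null arrays and 11.16, 10.84 and 11.42 on the heterozygous arrays, a difference of -0.77 (SE 0.50). Null replicate 3 was the lowest array for both, and null replicate 1 lay among the heterozygous arrays for Chrna1 and above all of them for Cdkn1a. Myod1, the muscle-determining helix-loop-helix factor, came next at 0.20, with 9.34, 8.63 and 7.79 on the null arrays and 9.89, 9.61 and 10.10 on the heterozygous arrays. Its groups did not overlap, and its difference was -1.28 (SE 0.38). The 3 genes were picked for their likeness to Runx1, so the direction of their differences follows from that choice. In limma's test none of the 3 was called (adjusted p = 0.999), and a likeness over 6 arrays that share their RNA is a description. The promoter window of Chrna1 held 3 E-boxes, those of Cdkn1a held 0 and 1, and that of Atf4 held 4. At least 1 E-box stood in 66.22% of all windows, and a part of E-boxes in these patterns was not tested.

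**Figure D4:**
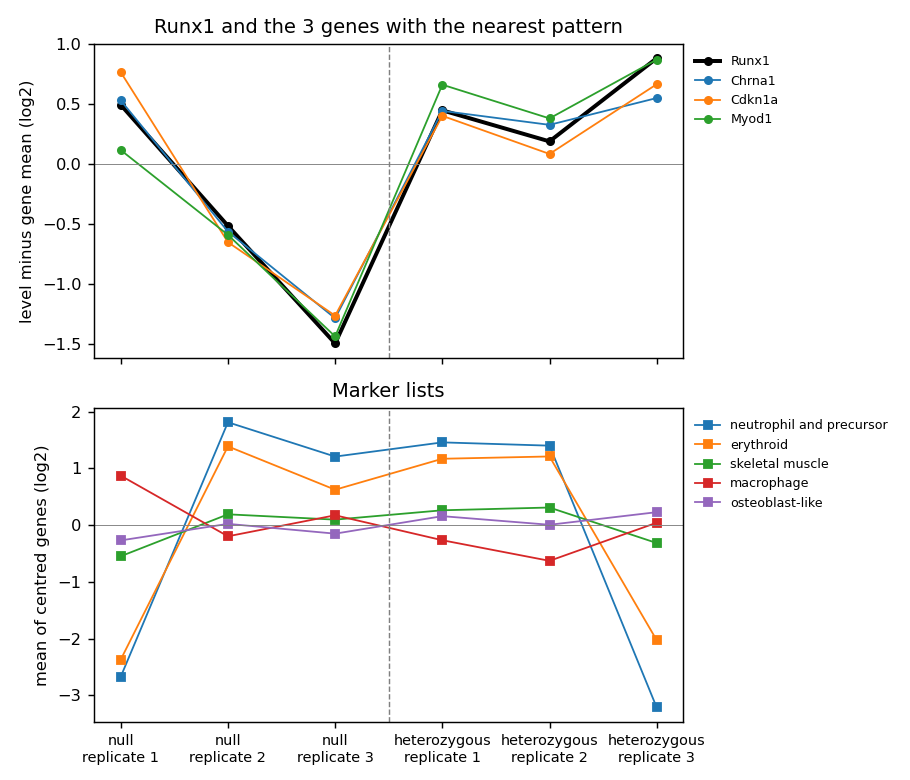
Upper panel, log2 level minus the gene's mean for Runx1 (1422864_at, thick line) and the 3 genes nearest to it, by array, null left and heterozygous right of the dashed line. Lower panel, mean of the centred log2 levels of 5 marker lists on the same arrays, in which null replicate 1 and heterozygous replicate 3 are lowest for the neutrophil and erythroid genes.

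Runx3, the runt-domain factor of T cells, cartilage and sensory neurons, had 2 probe sets. On 1440275_at it read 5.01, 4.80 and 4.63 on the null arrays and 4.50, 4.58 and 4.56 on the heterozygous arrays. All null values lay above all heterozygous values, although the closest arrays were 0.05 apart. The difference was 0.26 (SE 0.13, interval -0.04 to 0.57), with an unadjusted limma p of 0.0767 and an exact permutation p of 0.1. It was 0.16 without null replicate 1 and 0.17 without both marrow-poor arrays. On 1421467_at the levels were 3.90, 4.03 and 4.15 in null callus and 3.96, 4.30 and 3.87 in heterozygous callus, a difference of -0.02 (SE 0.15). T and NK cell markers were higher in null callus for 10 of 19 genes, with a median difference of 0.00, a mean level of 4.66 to 4.78 on the null arrays and 4.56 to 4.72 on the heterozygous arrays, and with Tbx21 within the background guide. The part of these cells in the Runx3 values was not tested. Cbfb, the common partner of the Runx proteins, read 10.16 to 10.28 on the null arrays and 10.23 to 10.37 on the heterozygous arrays, a difference of -0.08 (SE 0.10).

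Among 20 cofactors and corepressors of Runx proteins, 11 were higher and 9 lower in null callus, with a median difference of 0.03, and 1 had an unadjusted p under 0.05. Over all 18193 genes, the background for every list here, 9033 (49.7%) were higher and 9160 lower, with a median of -0.0017. At that threshold 375 were higher and 442 lower, or 4.49% in either direction. The cofactor past that threshold was Hdac4, a class IIa histone deacetylase that represses Runx2 in cartilage. Hdac4 (1454693_at) read 7.69, 8.28 and 7.34 on the null arrays and 9.01, 8.94 and 8.51 on the heterozygous arrays, a difference of -1.05 (SE 0.26), with an unadjusted limma p of 0.00613, an exact permutation p of 0.1 and an adjusted p of 0.999. All null arrays lay below all heterozygous arrays, and its other 2 probe sets were also lower in null callus, at -0.81 (SE 0.24) without overlap and -1.14 (SE 0.38) with overlap. Smad3, which carries transforming growth factor beta signals, differed by -0.49 (SE 0.22), the corepressor Tle1 by -0.28 (SE 0.14) and the corepressor Cbfa2t3 by 0.21 (SE 0.12).

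Atf4, the basic leucine zipper factor that osteoblasts need for amino acid uptake, had 3 probe sets. On 1448135_at it read 9.86, 10.20 and 10.35 on the null arrays and 9.98, 9.94 and 9.83 on the heterozygous arrays. Null replicates 2 and 3 lay above all heterozygous arrays and null replicate 1 within them. The difference was 0.22 (SE 0.15, interval -0.14 to 0.58), with an exact permutation p of 0.3. It was 0.11 without null replicate 3 and 0.36 without null replicate 1. On 1438992_x_at, whose suffix marks probes shared with other transcripts, it differed by 0.15 (SE 0.21) with overlap. On 1439258_at it differed by -0.13 (SE 0.09), with null values of 3.52 to 3.56 below heterozygous values of 3.64 to 3.69, and 2 of the 3 null values at or under the top of the background guide.

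Of 18 upstream kinases and dimer partners of Atf4, 9 were higher and 9 lower in null callus, with a median difference of -0.03. An unadjusted p under 0.05 was reached by 1 in each direction, against 4.49% of all genes. Jun, a leucine zipper subunit of AP-1, read 9.22, 9.68 and 9.28 on the null arrays and 10.11, 9.65 and 10.32 on the heterozygous arrays, a difference of -0.63 (SE 0.21). Its groups overlapped at heterozygous replicate 2. Eif2ak2, a kinase of the translation factor eIF2, differed by 0.37 (SE 0.15) and Eif2ak3, the eIF2 kinase of the endoplasmic reticulum, by 0.35 (SE 0.15), both without overlap. Of the 3 probe sets of Eif2ak3, 1 was lower in null callus.

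Of 40 amino acid response genes, 22 were higher and 18 lower, with a median difference of 0.03. At an unadjusted p under 0.05, 1 was higher and 2 were lower, against 4.49% of all genes. The neutral amino acid transporters Slc38a2 and Slc1a5, named for their low unadjusted p, went in opposite directions. Slc38a2 differed by -0.53 (SE 0.14), with 9.88, 10.07 and 10.17 on the null arrays and 10.79, 10.48 and 10.45 on the heterozygous arrays. Slc1a5 differed by 0.67 (SE 0.27), with 7.17, 7.43 and 7.44 on the null arrays and 6.21, 6.57 and 7.27 on the heterozygous arrays. The groups did not overlap for Slc38a2 and overlapped for Slc1a5. Gars, a glycyl-tRNA synthetase, differed by -0.47 (SE 0.18), and asparagine synthetase, Asns, by 0.14 (SE 0.20).

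The relatives and partners of the other factors showed no member with an adjusted p under 0.05, as for every list here. Of 14 Dlx, Msx and Sp relatives, 3 were higher and 11 lower, with a median difference of -0.04 and none in either direction at an unadjusted limma p under 0.05. Dlx1, Dlx2, Dlx4, Dlx6, Sp5 and Sp8 lay within the background guide on all arrays. Sp6, a zinc finger relative of Sp7, differed by -0.30 (SE 0.17) with overlap. Of 15 Twist partners, E proteins and Id inhibitors, 9 were higher and 6 lower, with a median difference of 0.04. Twist2 alone had an unadjusted p under 0.05, beside 4.49% of all genes. Scx (scleraxis), the helix-loop-helix factor of tendon, differed by -0.64 (SE 0.33) and the zinc finger repressor Snai2 by 0.44 (SE 0.26).

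Of 29 other transcription factors of the osteoblast lineage, 20 were higher and 9 lower in null callus, with a median difference of 0.10. At an unadjusted p under 0.05, 2 were lower, against 4.49% of all genes in either direction. Cebpb, a leucine zipper partner of Atf4 in osteoblasts, read 9.77, 9.47 and 9.46 on the null arrays and 9.87, 9.85 and 10.10 on the heterozygous arrays, a difference of -0.37 (SE 0.13) without overlap. The homeodomain factor Alx4 differed by -0.29 (SE 0.11), with null values of 3.15 to 3.31 within the background guide. Of 30 matrix genes of osteoblasts and osteocytes, 16 were higher and 14 lower, with a median difference of 0.01. This list holds the 12 osteoblast-like markers given beside Sp7. The same 3 genes as there were lower at an unadjusted p under 0.05, against 4.49% of all genes in either direction. Ibsp, bone sialoprotein, read 9.46, 9.59 and 9.84 on the null arrays and 10.44, 10.12 and 10.01 on the heterozygous arrays, a difference of -0.56 (SE 0.16). Alpl, the alkaline phosphatase of mineralising matrix, differed by -0.32 (SE 0.10) and Kazald1 by -0.36 (SE 0.12). The groups did not overlap for these 3 genes, and the adjusted p was 0.999 for each.

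Of 26 transcription factors of blood cells, a setting in which Runx1 and Runx3 also act, 19 were higher and 7 lower, with a median difference of 0.15. At an unadjusted p under 0.05, 2 were higher, against 4.49% of all genes in either direction. The mean centred level of the 26 was -0.53, 0.54 and 0.19 on the null arrays and 0.21, 0.26 and -0.68 on the heterozygous arrays, lowest on the marrow-poor arrays of both groups. Macrophage markers were higher in null callus for 15 of 15 genes, against 49.7% of all genes. An unadjusted p under 0.05 was reached by 3 of these markers, against 4.49% of all genes. Their median difference was 0.47, with a mean level of 7.71 to 8.78 on the null arrays and 7.28 to 7.95 on the heterozygous arrays and none within the background guide. The parts of marrow and macrophage RNA in the values of these factors and of the Runx genes were not tested. Hhex, a homeodomain factor, differed by 0.63 (SE 0.19) without overlap and the ETS factor Erg by 0.36 (SE 0.15) with overlap, while Spi1, the myeloid factor PU.1, differed by 0.26 (SE 0.11).

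**Figure D5:**
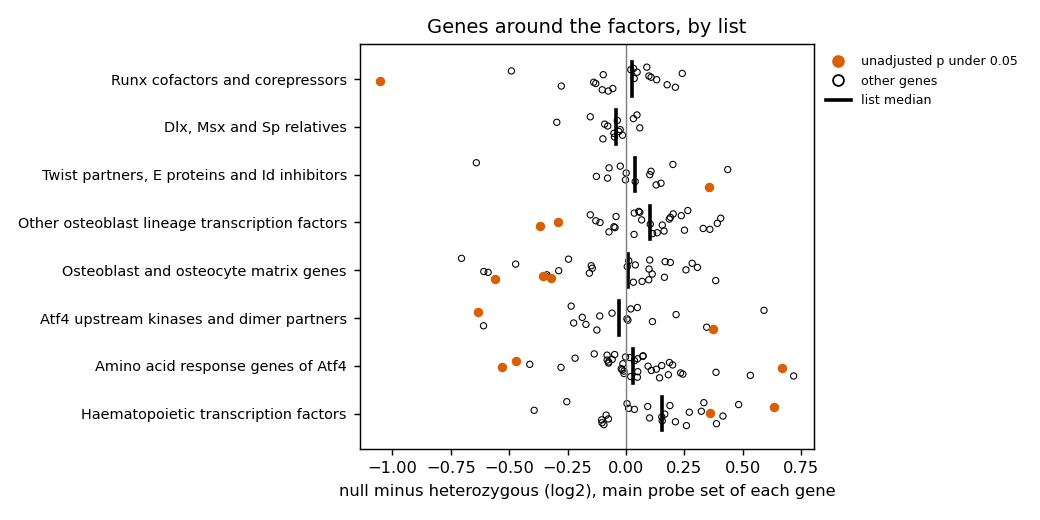
Null minus heterozygous difference in log2 units (horizontal axis) for the main probe set of each measured gene of the 8 lists around the factors, with filled points for an unadjusted p under 0.05 and a bar at each list's median. The list medians lie between -0.04 and 0.15, and the lowest value is Hdac4 at -1.05.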

How the data were processed

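Callus RNA was measured on 3 null and 3 heterozygous Affymetrix Mouse 430_2 arrays, grouped by the genotype in the labels. The deposited table gives 1 log2 value per probe set and array, a scale read from its range of 1.65 to 14.49. How the values were background-corrected, summarised and normalised is not stated in any source used here, and the near-equal array medians mean that a shift of all genes together cannot be seen. Of 45101 probe sets, 64 controls were left out. Gene symbols are those of the platform annotation, with 1 symbol for 34945 probe sets, several for 932 and none for 9160; a probe set with several symbols names no gene. Runx2, Spp1 and Bglap are not analysed here.

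The log2 values as deposited were fitted with limma (version 3.58.1, R 4.3.3) (a two-sided moderated test of the group means with lmFit and eBayes, without covariates), and p-values were adjusted by Benjamini-Hochberg over the 45037 probe sets and called under 0.05. The residual degrees of freedom were 4 and the prior added 2.50. Exact two-sided permutation tests over the 6 arrays used the difference of means, and with 3 against 3 arrays their smallest p is 0.1. The fit was tested on simulated data. Precision is limited by the number of arrays.

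The 9 genes and all lists were chosen with earlier results of these data known, so the lists are described by counts and medians and not tested. Every gene of the 9 is given with all its probe sets, and elsewhere a gene is represented by its probe set with the highest mean. From each list up to 4 genes with the lowest unadjusted p, and the relatives and partners of the 9 factors, could be named. The most abundant markers could be named from each marker list. Other probe sets of Hdac4 and the genes of the closing section were chosen after their values were seen. Of 403 genes sought in the 8 lists and 14 marker lists, 371 were measured. The 15 alternatives were quantile and cyclic loess normalisation, centring on medians, weighting of arrays, a robust prior with an intensity trend, testing only probe sets above the median level, testing 1 probe set per gene, a marrow score as covariate, leaving out both marrow-poor arrays, and leaving out each array.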

Additional observations from a re-analysis of the deposited data

How the results depend on the processing

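Over the 20 probe sets and up to 15 alternatives each, 264 of 283 values kept their sign, with no adjusted p under 0.05. The other 19 turned their sign, on 7 probe sets that all differed by less than 0.15. The robust prior, the level filter and the setting with 1 probe set per gene refit the same values, so they could not turn a sign. The nearly balanced marrow score could hardly do so. Sp7 turned to 0.0083 with array weights and 0.17 without both marrow-poor arrays, and ran from -0.22 to 0.0599 when 1 array at a time was left out. Dlx3 1450475_at turned to -0.0121 with array weights and -0.0329 without both marrow-poor arrays (-0.12 to 0.25 with 1 array left out). Cyclic loess turned Msx2 1438351_at to 0.0105 and Runx3 1421467_at to 0.0014, and array weights turned that Runx3 probe set to 0.0657. With 1 array left out, Msx2 1438351_at ran from -0.0428 to 0.0147, Runx3 1421467_at from -0.10 to 0.11, Dlx5 from -0.0763 to 0.22, Msx1 1448601_s_at from -0.0437 to 0.15 and Atf4 1438992_x_at from -0.0214 to 0.32. The number of all probe sets at an unadjusted p under 0.05, 1660 as reported, was 4631 with array weights, 746 with the level filter and 771 with 1 probe set per gene, where fewer were tested, 3507 with the marrow score, 3453 without both marrow-poor arrays and 1048 to 2721 with 1 array left out. The marrow score gave 1 adjusted call, 1447360_at, which has no gene symbol here. The number of Runx1 probe sets at that unadjusted threshold was 5 with array weights, 5 without both marrow-poor arrays and 1 to 6 with 1 array left out. Of the other 14 probe sets it was 2 with array weights and 0 to 1 with 1 array left out, against 0 as reported. The cause of these moves was not tested. Of 128 list medians under the alternatives, 125 moved by less than the spread between arrays and 3 by more. For every list that spread was larger than the size of the median, for example 0.54 against 0.15 for the blood cell factors. A median could thus turn its sign and still count as unmoved, so the count does not show stability. Scaling moved the median of all probe sets by at most 0.0169. Pseudocounts were not run, because the values are already log2. No paired analysis was possible because the labels give the arrays no shared replicate numbers. Probe sets near the background guide have compressed differences.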

Other observations

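Further muscle genes were read beside Runx1 after their values had been seen, so they are values only. Chrnd, the delta subunit of the acetylcholine receptor, read 6.99, 6.40 and 5.65 on the null arrays and 7.04, 6.99 and 7.22 on the heterozygous arrays, a difference of -0.74 (SE 0.32). Chrng, the subunit of the fetal receptor, read 9.28, 6.78 and 5.92 on the null arrays and 8.59, 7.71 and 8.82 on the heterozygous arrays on 1449532_at, a difference of -1.05 (SE 0.84). Null replicate 3 was the lowest array and null replicate 2 the second lowest for both, the order seen for Runx1.

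Musk, the kinase that gathers acetylcholine receptors at the nerve ending, differed by -0.75 (SE 0.38), with null replicate 3 lowest and null replicate 1 second lowest. Gadd45a, a stress-response protein, read 9.13, 10.16 and 8.29 on the null arrays and 11.27, 10.96 and 10.27 on the heterozygous arrays. Its difference was -1.64 (SE 0.49), with null replicate 3 lowest and null replicate 1 second lowest. Myog, the muscle differentiation factor myogenin, read 10.33, 7.14 and 7.85 on the null arrays and 8.90, 7.21 and 10.10 on the heterozygous arrays. Its difference was -0.30 (SE 1.01), with null replicate 2 lowest. Musk, Gadd45a and Myog thus did not have the order seen for Runx1. In limma's test none of these genes was called (adjusted p = 0.999).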
